A study of Arabidopsis thaliana with 6 samples.

Results

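ZFP5 (AT1G10480) was 1 of 708 entries in the authors' deposited table of transcripts that differed in roots of Arabidopsis thaliana between the wild type and the hb13 mutant, and 1 of the 394 entries that were higher in the mutant. It was selected on its deposited Col and hb13 values, as a gene that rose, and for its known role in root hairs, so its values and ranks are a description, without a test. The wild type was the Col-0 accession, the usual laboratory strain, and the mutant carried a lesion in HB13, a homeodomain-leucine zipper transcription factor, in the same accession. Each genotype was sequenced as 3 libraries from plants 5 days old on standard medium with no further treatment. The labels call the tissue whole root and also say that roots were cut about 0.5 cm from the tip. They name neither the allele nor how the mutation was made. The table holds 1 expression value per genotype and none per library, so replicate spread is not known here and no difference can be set against it other than through the q-value computed by the authors. HB13 itself had no row, so the genotype could not be checked against its own transcript.

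ZFP5 encodes a small transcription factor with a single C2H2 zinc finger, a fold in which a pair of cysteines and a pair of histidines hold a zinc ion. It belongs to a group of related zinc finger proteins, among them GIS, GIS2, ZFP6 and ZFP8, that promote outgrowths of epidermal cells. In shoots these proteins link gibberellin and cytokinin signals to the start of trichomes, the leaf hairs. In roots ZFP5 promotes the start and growth of root hairs and takes part in the responses of hairs to cytokinin and ethylene. Cytokinin is sensed by histidine kinases and relayed to type-B response regulators, which switch on genes, among them the type-A response regulators that damp the signal.

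In the RefSeq annotation of assembly TAIR10.1, ZFP5 lies on the plus strand of chromosome 1 as a gene of 1660 bases. It has 1 annotated mRNA with 1 exon, a coding length of 636 bases and no overlapping gene, and the mRNA starts 124 bases inside the annotated gene. The stretch just before the annotated gene start is shown because HB13 is a DNA-binding protein and because cytokinin output runs through factors that bind short sites. It covers 250 bases at chr1:3449317-3449566 on the plus strand, and its only match to the motifs searched is in capitals.

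ZFP5 upstream region: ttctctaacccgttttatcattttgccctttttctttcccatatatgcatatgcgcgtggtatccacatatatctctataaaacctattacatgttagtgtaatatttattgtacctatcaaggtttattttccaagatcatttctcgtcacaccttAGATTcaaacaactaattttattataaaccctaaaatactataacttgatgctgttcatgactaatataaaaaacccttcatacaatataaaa

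The motifs were searched on both strands. CAATNATTG, the palindrome bound by this class of homeodomain-leucine zipper proteins, had 0 matches in the ZFP5 window and occurred in 0.918% of 27443 such windows of nuclear protein-coding genes. Its inner part AATNATT, which lies inside every CAATNATTG, also had 0 matches and occurred in 30.5% of windows. AGATT, a short site of type-B response regulators, had 1 match, 93 to 89 bases before the gene start, and occurred in 63.7% of windows. Variants of these motifs, such as AGATC, which the window also holds, were not searched. A match to such short letters is a description of this window and says nothing of binding, and the absence of a match covers these 250 bases alone.

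The ZFP5 transcript was about 3 times as high in the mutant. The authors' deposited table gave ZFP5 an expression value of 2.15 in Col and 6.29 in hb13. The log2 of the hb13 over the Col value for ZFP5, called the log2 ratio from here on, was 1.55 in the authors' deposited table, a 2.92-fold difference, with a q-value of 0.00246. This was the smallest q-value in the authors' deposited table and was shared by 342 entries, 182 of them higher in the mutant, so ZFP5 cannot be ranked within that set by q-value. Neither the number of reads behind the ZFP5 values nor the depth of the libraries is known, so no interval can be put on them. Reads were 100 bases long by the labels. None of the 30 blocks of 50 bases that tile the ZFP5 exon occurred elsewhere in the TAIR10.1 genome, so none of its 1437 stretches of read length had an exact second copy. Roots were sequenced in bulk, and a larger share of cells that express ZFP5 cannot be told apart from more ZFP5 RNA in each of them.

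ZFP5 stood high by ratio and low by level. By the ratio of the authors' deposited values it ranked 26 of the 394 rising entries, so 25 entries rose by a larger factor and ZFP5 lay in the top 6.60%. By the mean of the 2 genotype values in the authors' deposited table, 4.22 for ZFP5, it ranked 344 of 394, with 50 rising entries below it. Its rank among rising entries was 355 by the Col value and 334 by the hb13 value in the authors' deposited table. By the plain difference between the genotypes, 4.14 in the authors' deposited table, ZFP5 ranked 295. Because the table does not name the scale of its values, these orders by level compare deposited values and are not a ranking of RNA molecules.

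Rising entries with low values had larger ratios in this table than rising entries in general, so ZFP5 was also set against those of similar level. With mean values within 2-fold of the ZFP5 mean, from 2.11 to 8.45, there were 86 rising entries including ZFP5. Among these 86 it ranked 12 by ratio. Their median log2 ratio in the authors' deposited table was 0.97, with a range from 0.51 to 2.33, against a median of 0.68 over all rising entries. Of the 25 entries with a larger ratio than ZFP5, 11 had a lower mean value and 14 a higher one, and 21 shared its q-value.

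**Figure D1:**
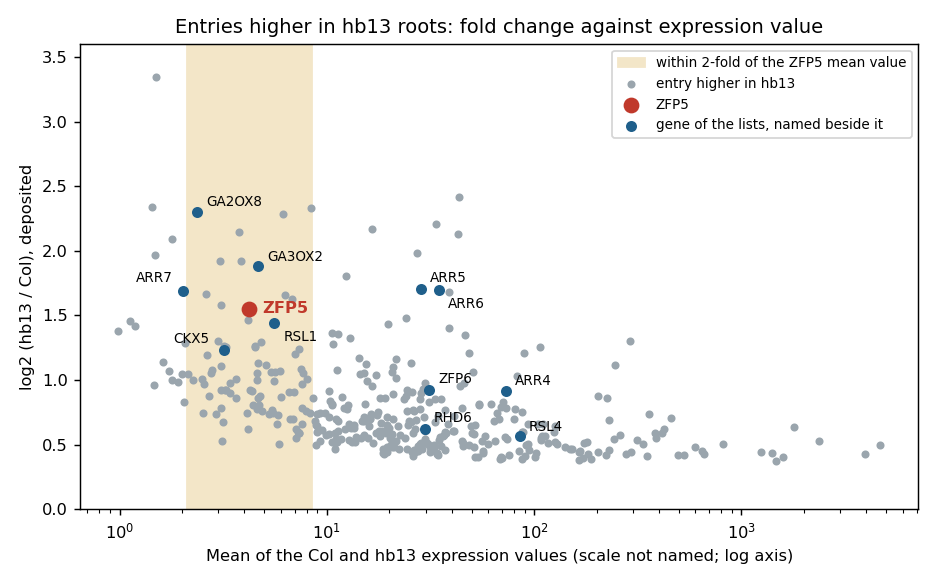
Log2 ratio of hb13 over Col (vertical) against the mean of the 2 expression values (horizontal, log axis) for the 394 entries higher in hb13, 1 point per entry, with no error bars because the table has 1 value per genotype. ZFP5 (red) sits at a mean value of 4.22 and a log2 ratio of 1.55, above most of the 86 entries in the shaded range within 2-fold of its mean value, and 11 genes of the lists described in the text are named in blue.

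The entries next to ZFP5 in the order by ratio had a range of levels. Just above it at rank 25 was AT1G67900, annotated as an NPH3 family protein, with 1.54 in Col and 4.60 in hb13 in the authors' deposited table. At rank 24 stood UGT76D1, a glucosyltransferase, with 3.31 and 10.2 in the authors' deposited table. At rank 23 was AT1G76210, of unknown function, with 3.01 and 9.50 in the authors' deposited table. Log2 ratios of these 3 entries ran from 1.58 to 1.66 in the authors' deposited table. Just below ZFP5, AT3G55720 rose from 12.7 to 35.4 in the authors' deposited table, at a level well above that of ZFP5. AT1G75000, annotated as a GNS1/SUR4 membrane protein, came next with 2.21 in Col and 6.10 in hb13, and then AT5G54710, an ankyrin repeat protein, with 0.601 and 1.65 in the authors' deposited table. With no error on any value, the order among these neighbours is not resolved.

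The 3 neighbours of ZFP5 on each side in the order by level all had smaller log2 ratios than ZFP5. NCED3, an enzyme of abscisic acid synthesis, went from 3.22 to 5.64, a log2 ratio of 0.81 in the authors' deposited table. The lipase GLIP4 and the ribonuclease RNS1, the entries directly above ZFP5 with NCED3, had log2 ratios of 0.91 and 0.92 in the authors' deposited table. Directly below it, the galactosyltransferase family gene AT5G62620 and CYP79B2, which makes the precursor of indole glucosinolates, had 0.62 and 0.74 in the authors' deposited table. The nearest to ZFP5 in ratio was AT1G75000, between those last 2 genes by level, with 1.47 in the authors' deposited table.

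Likeness of pattern was measured as the distance between entries over the log2 Col value and the log2 hb13 value, that is over 2 genotypes. The entry nearest to ZFP5 was again AT1G75000, at a distance of 0.06 log2 units and with q = 0.00645 in the authors' deposited table. GA3OX2, which makes active gibberellin in its last step, was next at 0.24, with 1.98 in Col and 7.30 in hb13 in the authors' deposited table. GSTF7, a glutathione transferase, lay at 0.30 with 2.65 and 6.32 in the authors' deposited table. MAPKKK13, a protein kinase, lay at 0.30 as well, with 2.65 and 6.38 in the authors' deposited table. The last of the 5 was AT2G43470, annotated as a putative CCCH zinc finger protein, at 0.38 with 2.77 and 6.81 in the authors' deposited table. The measure rests on 2 values per gene.

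Of the zinc finger relatives of ZFP5, ZFP6 was the member listed. ZFP6 acts upstream of ZFP5 in trichome initiation by the RefSeq note. The authors' deposited table gave ZFP6 an expression value of 21.6 in Col and 40.9 in hb13, a log2 ratio of 0.92 with a q-value of 0.00246. Its ratio was smaller than that of ZFP5, and the difference between their changes was not tested. The other 10 relatives that matched the annotation, among them GIS, GIS2 and ZFP8, had no row, and GIS3 was not matched to a locus. A gene without a row either did not pass the authors' q-value or was not tested, and the table does not separate these cases. For scale, 1.38% of the 27444 annotated nuclear protein-coding genes were listed as higher in hb13, 1.11% as lower and 2.49% in either direction. How many of them the authors tested is not given, and genes silent in roots are among them.

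Across all genes that the annotation describes with a C2H2 zinc finger, 6 of 190 were listed (3.16%), a share near that of all genes. ZFP5 itself is 1 of these 6 and was chosen as a gene that rose, so its place among them is no separate result. It had the largest log2 ratio of the 6 in the authors' deposited table. The others that were higher were AT5G56200 (1.51 in Col and 3.01 in hb13), ZFP6 with a log2 ratio of 0.92, AT5G22890 with 0.70 and ZF1 (AT5G67450) with 0.48 in the authors' deposited table. ZAT11 was lower, with 11.0 in Col and 6.01 in hb13 and a log2 ratio of -0.87 in the authors' deposited table.

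Some root hair regulators of the bHLH family, 3 in number, were higher together with ZFP5. Of 7 matched members, 3 were listed and all 3 were higher (42.9% of the members, against 1.38% of all genes), with a median log2 ratio of 0.62 in the authors' deposited table, close to the 0.68 of all rising entries. RSL1, which with RHD6 makes an epidermal cell able to form a hair, had 3.01 in Col and 8.16 in hb13 in the authors' deposited table, a log2 ratio of 1.44. RHD6 had 23.4 in Col and 36.0 in hb13 in the authors' deposited table, a log2 ratio of 0.62. RSL4, which sets how far a hair grows, had 68.7 in Col and 102 in hb13 in the authors' deposited table, a log2 ratio of 0.56. All 3 shared the smallest q-value, and RSL1 alone had a change near the size of that in ZFP5. RSL2, LRL1, LRL2 and LRL3 had no row, and RSL3 and RSL5 were not matched to a locus.

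The genes that place hair and non-hair cells in files were not listed. In this group 0 of 19 were in the table, where 2.49% of all genes were listed, so a count of 0 is near that share. The genes without a row include the hair-promoting CPC and TRY and the genes of the non-hair fate WER, GL3, EGL3, TTG1 and GL2. Of the 32 genes in the hair growth list, 2 were listed and both were higher (6.25%, against 1.38% of all genes). PRP3, a cell wall protein of root hairs, had 1191 in Col and 1609 in hb13 in the authors' deposited table, a log2 ratio of 0.43 with a q-value of 0.0255. XTH26, an enzyme that remodels wall xyloglucan, had 5.30 in Col and 10.7 in hb13 in the authors' deposited table, a log2 ratio of 1.01. Others in that group without a row include the expansin genes EXPA7 and EXPA18, the oxidase gene RHD2 and COW1. The list does not hold every gene of root hairs. ROPGEF3, outside it, was lower, with 37.9 in Col and 27.8 in hb13, a log2 ratio of -0.45 in the authors' deposited table. Other entries outside the list were higher. Among cell type markers, 2 of 6 for root hair cells were listed, where 2.49% of all genes were. These were PRP3 and RSL4, both higher and both already counted in the lists above, so they add no separate result. For non-hair cells 0 of the 4 genes taken as markers (GL2, WER, EGL3 and TTG2) were listed. In which cells the RNA of these genes is made was not checked. For the stele 0 of 3 were listed and for shoot or leaf 0 of 3. For the endodermis 0 of the 2 that matched a locus by symbol were listed, and for the root cap 0 of the 1 that did. With so few markers, each count of 0 is near the 2.49% share of all genes. The root cap symbol BRN2 found no locus, but it is another name for NAC070 (AT4G10350), which was listed as lower. NAC070 had 43.9 in Col and 28.4 in hb13 in the authors' deposited table, a log2 ratio of -0.63, and shared the smallest q-value. The part of a changed share of hair cells in the ZFP5 value was not tested. Markers without a row have no value, so the labelled tissue could not be checked against them.

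Members of the cytokinin lists that had a row were all higher, as ZFP5 was, and most of them were type-A response regulators. Members without a row have no known change. Of the 10 type-A response regulators 6 were higher (60% of the members, against 1.38% of all genes). Their log2 ratios in the authors' deposited table ran from 0.60 to 1.71, the median being 1.30. ARR5 (13.3 in Col and 43.4 in hb13), ARR6 (16.4 and 52.9) and ARR7 (0.955 and 3.07) had larger log2 ratios than ZFP5 in the authors' deposited table, at 1.71, 1.69 and 1.68, though the q-value of ARR7 was 0.0477. Of the 20 receptors, phosphotransfer proteins and type-B regulators, 1 was listed (5%, against 2.49% of all genes). This was ARR10, a type-B regulator with a large role in roots, with 40.3 in Col and 56.9 in hb13, a log2 ratio of 0.50 in the authors' deposited table.

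Among 27 genes of cytokinin synthesis and breakdown, 2 were listed as higher (7.41%, against 1.38% of all genes). These 2 act in opposite senses. LOG7, which releases active cytokinin, had 50.8 in Col and 90.4 in hb13, a log2 ratio of 0.83 in the authors' deposited table. CKX5, a cytokinin oxidase that degrades the hormone, had 1.90 and 4.47, a log2 ratio of 1.23 in the authors' deposited table. Of the 8 cytokinin response factor genes 0 were listed, a count near the 2.49% share of all genes.

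Of 26 gibberellin genes 5 were listed and all 5 were higher (19.2%, against 1.38% of all genes). Their median log2 ratio was 1.05 in the authors' deposited table. They cover synthesis, inactivation and signalling. Besides GA3OX2, with a log2 ratio of 1.88, the synthesis genes GA20OX2 (2.99 in Col and 6.20 in hb13) and GA3OX1 (9.65 and 14.9) had 1.05 and 0.62 in the authors' deposited table. GA2OX8, which inactivates gibberellin precursors, had 0.796 and 3.92, a log2 ratio of 2.30 in the authors' deposited table. RGL2, a DELLA repressor of the gibberellin response, had 2.19 and 3.66, a log2 ratio of 0.74 with q = 0.0232 in the authors' deposited table.

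Ethylene genes were split. Of 25, 5 were listed (20%, against 2.49% of all genes), 2 of them higher and 3 lower in hb13. ACS5 and ACS2, which make the ethylene precursor, had 13.3 in Col and 29.8 in hb13, and 7.30 and 12.2, with log2 ratios of 1.16 and 0.74 in the authors' deposited table. The receptor genes ETR2 (4.32 in Col and 1.97 in hb13) and ERS2 (1.62 and 0.850) were lower, with log2 ratios of -1.14 and -0.93 in the authors' deposited table. EBF2, an F-box gene whose product removes the ethylene factor EIN3 and which ethylene itself induces, had 29.8 and 16.3, a log2 ratio of -0.87 in the authors' deposited table.

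Over the 10 gene lists together, 25 of 185 matched genes were listed, where 2.49% of all genes were. Of these, 22 were higher and 3 lower, where 55.6% of all table entries were higher. Of these 25 genes, 5 had a larger log2 ratio than ZFP5, namely ARR5, ARR6, ARR7, GA3OX2 and GA2OX8. All 5 belong to the type-A regulator or the gibberellin list, and GA3OX2 and GA2OX8 also had mean values within 2-fold of that of ZFP5. The lists were written with earlier results of this table known, so their counts describe the surroundings of ZFP5 and are not independent evidence.

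**Figure D2:**
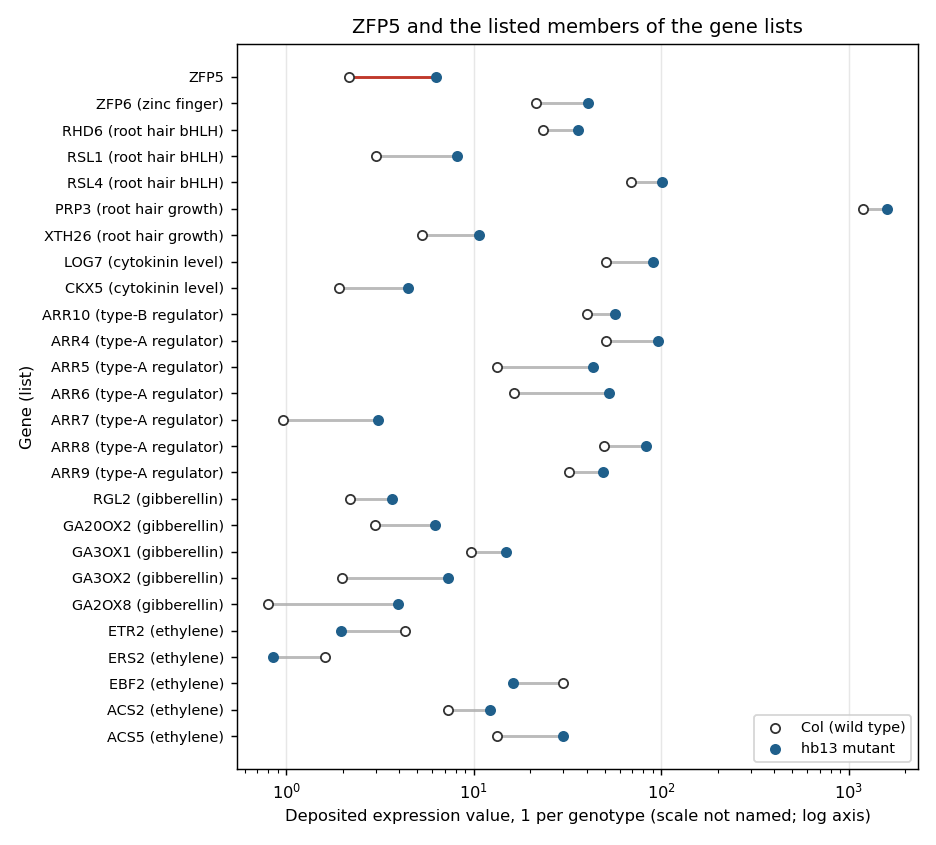
Expression value in Col (open circles) and hb13 (filled circles) for ZFP5 and the 25 listed genes of the gene lists, on a log axis, 1 value per genotype and no error bars. ZFP5 runs from 2.15 to 6.29, and the 3 genes whose filled circle lies to the left of the open one are the ethylene genes ETR2, ERS2 and EBF2.

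The gene next to ZFP5 on the chromosome was also listed. ARR4, a type-A response regulator, is its nearest annotated neighbour upstream, on the opposite strand, with 5206 bases between the genes. The authors' deposited table gave ARR4 an expression value of 50.8 in Col and 95.8 in hb13, a log2 ratio of 0.92 with a q-value of 0.00246. The gene on the other side, AT1G10490, starts 1964 bases after the end of ZFP5 and had no row. None of the 3 genes beyond ARR4 or of the 3 genes beyond AT1G10490 had a row. Of the 385 rising entries with a nuclear locus in the annotation, 44 had a rising gene directly beside them, on either side. For scale, 1.38% of annotated nuclear protein-coding genes were listed as higher. This share is per gene, while the 44 were counted over 2 sides, so the 2 are not directly comparable. Rising entries also include related genes with consecutive locus numbers, such as GSTF6 and GSTF7 (AT1G02930 and AT1G02920). Whether rising genes lay side by side more often than other genes was not tested.

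**Figure D3:**
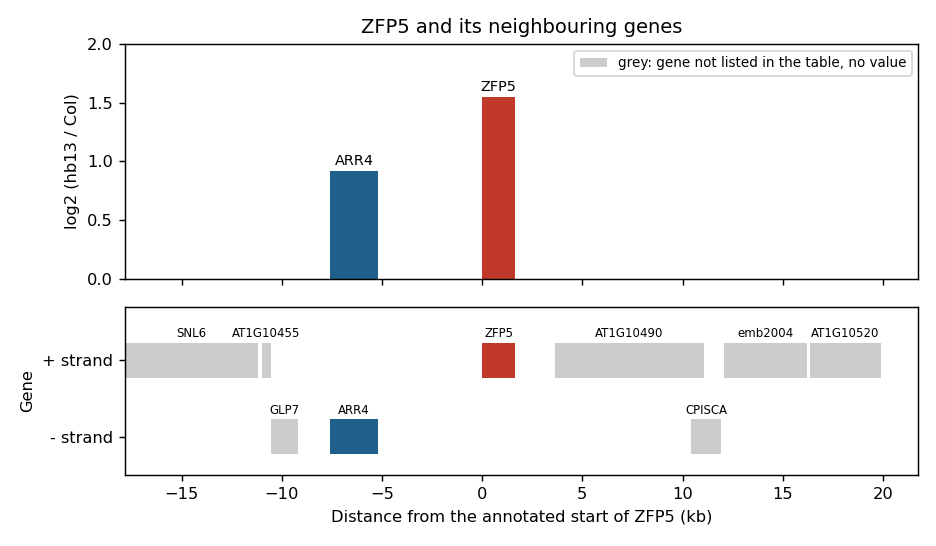
Log2 ratio of hb13 over Col (top) and annotated genes by strand (bottom) against distance from the ZFP5 start in kilobases, with ZFP5 in red, ARR4 in blue and genes without a row in the table in grey. Of the 9 genes drawn, ZFP5 at 1.55 and ARR4 at 0.92 are the ones with a value.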

How the data were processed

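Poly(A) RNA from roots was sequenced as strand-preserving single-end libraries, per the labels' protocols. TopHat2 2.0.13, Cufflinks 2.1.1 and Cuffdiff, with build TAIR10, are named per the submitters' processing notes, without their roles. The authors' deposited table gives a normalized expression signal per genotype, of unnamed scale, for entries with a q-value up to 0.05. The deposited q-values came with no stated test or adjustment. The deposited log2 fold change equalled the log2 ratio of the hb13 over the Col value to within 1.02e-05 in 706 entries. The other 2 entries were at 0 in hb13. Without values per library, the count-based test planned for that case was not run. Read depth is unknown.

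From this table, ranks, distances, counts and medians were computed with Python 3.11.15, pandas 2.3.3 and NumPy 2.4.6, and plots with matplotlib 3.10.9. Ranks were tested on simulated data. Entries matched RefSeq TAIR10.1 by locus for 695 of 708, and 185 of 188 list symbols matched. The genes named were ZFP5, its 3 neighbours on each side by ratio and by level, the 5 nearest in pattern, and listed members of the gene lists and of the C2H2 genes. ZFP5, the lists and the rules were chosen with earlier results of these data known. Alternatives were a q-value under 0.01, an absolute log2 ratio of 1 or more, minimum mean values of 1 and 5, pseudocounts of 1 and 0.1, other measures of level and a rescaling of hb13.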

Additional observations from a re-analysis of the deposited data

How the results depend on the processing

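No paired analysis was possible because only 1 value per genotype is given, so neither could a replicate be left out. The log2 ratio of ZFP5 was 1.21 and 1.51 with pseudocounts of 1 and 0.1. It was 1.32 after dividing hb13 values by 1.17, the ratio of the genotype medians over the listed entries (a shift of 0.23 on the log2 scale). Since listed entries were all selected as different, that ratio does not measure library scaling and cannot test the normalization. The rank of ZFP5 by ratio lay between 22 of 238 entries (q-value under 0.01) and 30 of 394 (pseudocount of 1). It has no rank with means of 5 or more, since its own mean is lower. By level it ranked 219 of 238 at a q-value under 0.01 and 57 of 88 at an absolute log2 ratio of 1 or more, where fewer entries are ranked.

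Of 47 alternative values, 30 stayed within 1.5 times and 17 moved further. The list counts could only fall. With an absolute log2 ratio of 1 or more, zinc finger relatives and the list that holds ARR10 fell to 0, root hair bHLH factors, root hair growth, cytokinin synthesis and breakdown, and ethylene in each direction to 1, and type-A regulators and gibberellin genes to 3. At a q-value under 0.01 root hair growth fell to 1, gibberellin to 3 and lower ethylene genes to 2. With means of 5 or more, cytokinin synthesis and breakdown, gibberellin and lower ethylene genes fell to 1. The depth behind the ZFP5 values is unknown, so their error is too.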

Other observations

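The inner homeodomain-leucine zipper motif AATNATT, absent from the ZFP5 window, was found in 41.3% of the 378 upstream windows of listed genes that were higher in hb13, in 35.3% of the 306 that were lower and in 30.5% of all windows. The whole motif CAATNATTG was found in 7, 4 and 252 windows of these sets, or 1.85%, 1.31% and 0.918%. Median GC content of the windows was 29.2%, 30% and 31.2% in the same order, and its part in the shares was not tested.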
